A study of Bombus terrestris with 70 samples.

Results

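LOC100650436, the vitellogenin gene of the buff-tailed bumblebee Bombus terrestris, was followed in 3 tissues of queens, namely brain, fat body and ovary. It is 1 gene of 10591 listed in at least 1 of their 3 tables, and it is listed in all 3 tables. It was chosen by its identifier, with earlier results of these data known. The tables give the identifier alone. A RefSeq gene table holds 1 entry for it, a protein-coding gene with 1 transcript and 1 protein, and no product name, so the name vitellogenin was not checked against a sequence. No sequence of the gene was used here.

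Vitellogenin is the precursor of the main yolk protein of insects. It is made mostly in the fat body, an organ of the insect abdomen that combines roles of the liver and of fat tissue, is released into the haemolymph and is taken up by growing oocytes through a receptor on their surface. In many insects its synthesis is under juvenile hormone, which acts as a gonadotropin in Bombus terrestris. In honeybee workers vitellogenin is also known for links with division of labour and lifespan.

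A library held the RNA of 1 tissue from 1 queen. In egg removal a queen's eggs were taken from her, which was to make reproduction more costly. Control queens had their eggs taken out and then returned, and so went through the same disturbance. Queens were sampled when 10% (TP1) or 60% (TP2) of their cohort had died. The brain was measured in 6 control and 6 egg removal queens at TP1 and in 5 and 5 at TP2. The fat body was measured in 6 queens per group, except control TP2 with 4, and the ovary in 6 queens per group. Neither the age of a queen in days nor a strain is given by the labels, and the labels do not say whether tissues with the same number came from the same queen.

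Values are the authors' normalized read counts, scaled separately within each tissue, so levels are compared between tissues only as a percent of each library's total and without a test. Estimated depth, in M reads, was 24.1 to 56 for brain, 12.1 to 60.2 for fat body and 19.6 to 68 for ovary libraries. These depths put at least 22 reads on the gene in every library, the fewest in the ovary. No 2 libraries were copies of each other, with a highest correlation of 0.989 between any 2. Tissue labels could not be checked against named marker genes, since only identifiers were at hand. In such bulk libraries, fewer cells of a type and less RNA per cell cannot be told apart.

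LOC100650436 stood at very different levels in the 3 tissues. It took a median of 12.5% of the library total in the fat body (range 0.0473% to 27.4%, n = 22), 0.145% in the brain (0.00138% to 1.504%, n = 22) and 0.00126% in the ovary (0.000112% to 0.0176%, n = 24). The fat body median was 86.5 times the brain median and 9920 times the ovary median. The brain median was 115 times that of the ovary. The tissue ranges overlapped at their ends. The lowest fat body library, a control TP2 queen, lay below most brain libraries, and the lowest brain libraries, 4 from control TP2 and 1 from control TP1, lay within the ovary range.

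**Figure D1:**
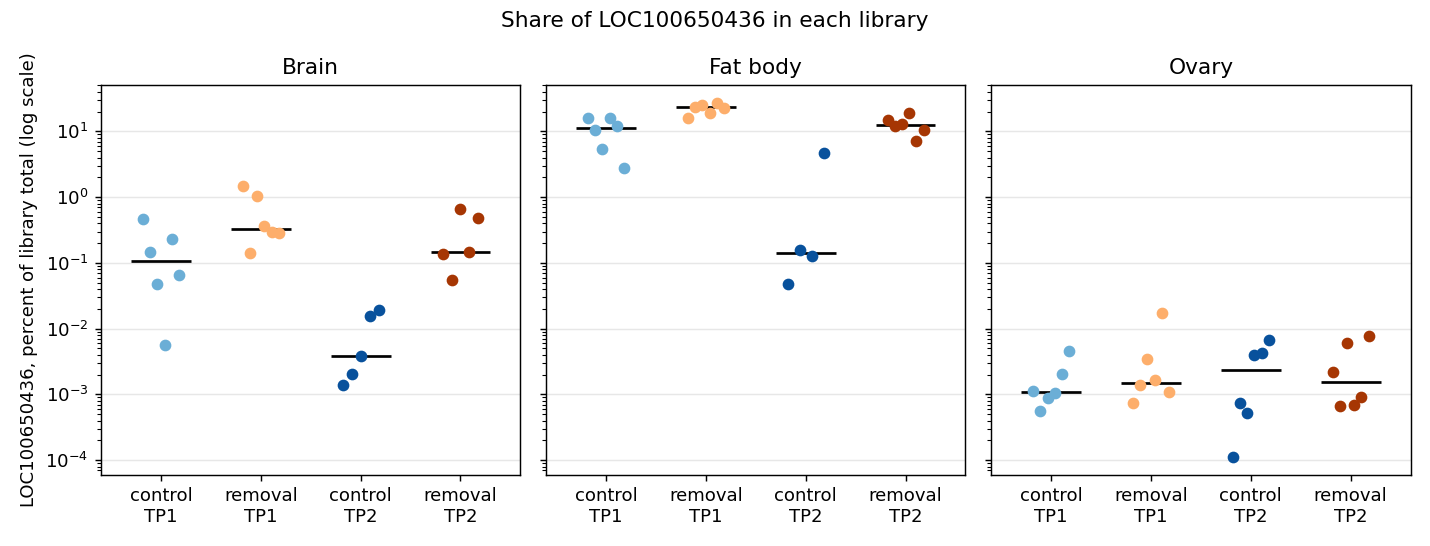
Share of LOC100650436 in each library, in percent of the library's total on a log axis, for brain, fat body and ovary. Points are queens and bars are group medians. Fat body libraries run from 0.0473% to 27.4%, brain libraries from 0.00138% to 1.504% and ovary libraries from 0.000112% to 0.0176%, and control TP2 has the lowest median in fat body and in brain.

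In the fat body LOC100650436 had the highest value of any gene in 18 of 22 libraries, a ranking by value that takes no account of transcript length. It led in 5 of 6 control TP1 libraries, in all 6 of egg removal TP1, in 1 of 4 of control TP2 and in all 6 of egg removal TP2. In the other control TP2 libraries it ranked between 72 and 341, and LOC100642443, LOC100631078 and LOC100652170 led there. In the brain its rank ran from 9 to 7252 and in the ovary from 1280 to 8719.

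At TP1 the fat body held more LOC100650436 in egg removal queens than in controls. Control TP1 libraries, in order of replicate number, had 4978628, 2533704, 1367819, 5292534, 3489335 and 842764 normalized reads. Egg removal TP1 libraries had 6277559, 11028415, 14522309, 10200717, 12518460 and 10887146. Every egg removal library was above every control library. The log2 difference was 2.06 (SE 0.75, 95% interval 0.50 to 3.62), a 4.16-fold higher level with an adjusted p of 0.0405 by limma. In this comparison 32.4% of all genes tested were called, so a call by itself was common. The exact two-sided permutation test gave p = 0.00216, the smallest that 6 against 6 libraries allow, and 0.026 when adjusted over the 12 pairs of groups tested.

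As a percent of the library total the same libraries read 10.5% ± 5.44 (SD, n = 6) in control TP1 and 22.4% ± 4.30 (SD, n = 6) in egg removal TP1. On this scale the groups touched, with a highest control library at 16.1% and a lowest egg removal library at 15.7%. Egg removal libraries also had larger normalized totals (39.9 to 56.7 M against 23.7 to 32.9 M) and greater estimated depth (35.5 to 58.3 M reads against 14.1 to 49.5 M). Of 8 alternative settings of the fit, 5 kept the call. Among those that lost it were an equal total for every library (log2 1.31, adjusted p = 0.117 by limma) and depth as a covariate (log2 0.77, adjusted p = 0.496 by limma). The call was kept in 4 of the 12 fits that each left out 1 library, with adjusted p up to 0.0955 by limma without control TP1 replicate 6.

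At TP2 the difference in the fat body was larger on the log2 scale, at 5.82 against 2.06 at TP1. Whether these 2 differ is the interaction given below, which was not called (adjusted p = 0.0825 by limma). The 4 control TP2 libraries had 11427, 70359.6, 31168 and 1334912 normalized reads. The 6 egg removal TP2 libraries had 4724218, 5160594, 5942737, 6382114, 2176120 and 3178777. Control replicates 1, 2 and 3 lay far below all other fat body libraries, and replicate 5 lay close to the lowest egg removal library without reaching it. As a share of the library total this was 1.27% ± 2.31 (SD, n = 4) in control and 12.7% ± 4.02 (SD, n = 6) in egg removal. The geometric mean was 56.7 times higher in egg removal (95% interval 16.9 to 189). LOC100650436 had the largest absolute change and the smallest p of all 10383 fat body genes in this comparison, in which limma called 4.6% of genes. The exact two-sided permutation test gave p = 0.00952, the smallest for 6 against 4 libraries, and 0.0286 adjusted over the 12 pairs. With 1 library left out at a time, limma called it each time, and the log2 difference was lowest without control TP2 replicate 1 (4.91) and highest when control TP2 replicate 5 was left out (7.20). When limma was fitted to these 2 groups only, the adjusted p was 0.101 and no gene was called.

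Control queens had less LOC100650436 in the fat body at TP2 than at TP1. The level was 33.4 times lower (95% interval 9.99 to 112), a log2 change of -5.06 (SE 0.84, adjusted p = 0.00869 by limma). No other fat body gene had a larger absolute change with time in controls, where 1.24% of genes were called. The groups overlapped through 1 library, since control TP2 replicate 5 exceeded control TP1 replicate 6. The exact permutation test gave p = 0.019 and 0.0381 adjusted over the 12 pairs. The change was -6.44 without control TP2 replicate 5, and the adjusted p was 0.112 when limma was fitted to these 2 groups only. These comparisons share the control TP2 libraries with the treatment comparison at TP2.

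In egg removal queens the log2 change from TP1 to TP2 was -1.30 (SE 0.75, 95% interval -2.85 to 0.26), with an adjusted p of 0.297 by limma, where 5.99% of genes were called. Of the 6 egg removal TP2 libraries, 5 lay below every egg removal TP1 library, and the remaining one was just above the lowest of them. The exact permutation test, which uses the spread of these groups alone, gave p = 0.00433 and 0.026 adjusted over the 12 pairs. The tests thus stood on different sides of the threshold. Within-group SDs on the log2 scale were 0.41 and 0.60 in egg removal TP1 and TP2, against 1.06 and 2.96 in control TP1 and TP2.

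The interaction asks whether the treatments differed in their change with time. It is the change from TP1 to TP2 in egg removal minus that in control. In the fat body it was 3.77 on the log2 scale (SE 1.13, 95% interval 1.43 to 6.10), with an adjusted p of 0.0825 by limma, and 1.05% of genes were called. Only 10 of 10383 genes had a larger absolute interaction. It passed the threshold without control TP2 replicate 5 (log2 5.14, adjusted p = 0.00439 by limma), with weights per library (4.40, adjusted p = 0.00441 by limma) and with equal totals for all libraries (4.24, adjusted p = 0.0306 by limma).

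**Figure D2:**
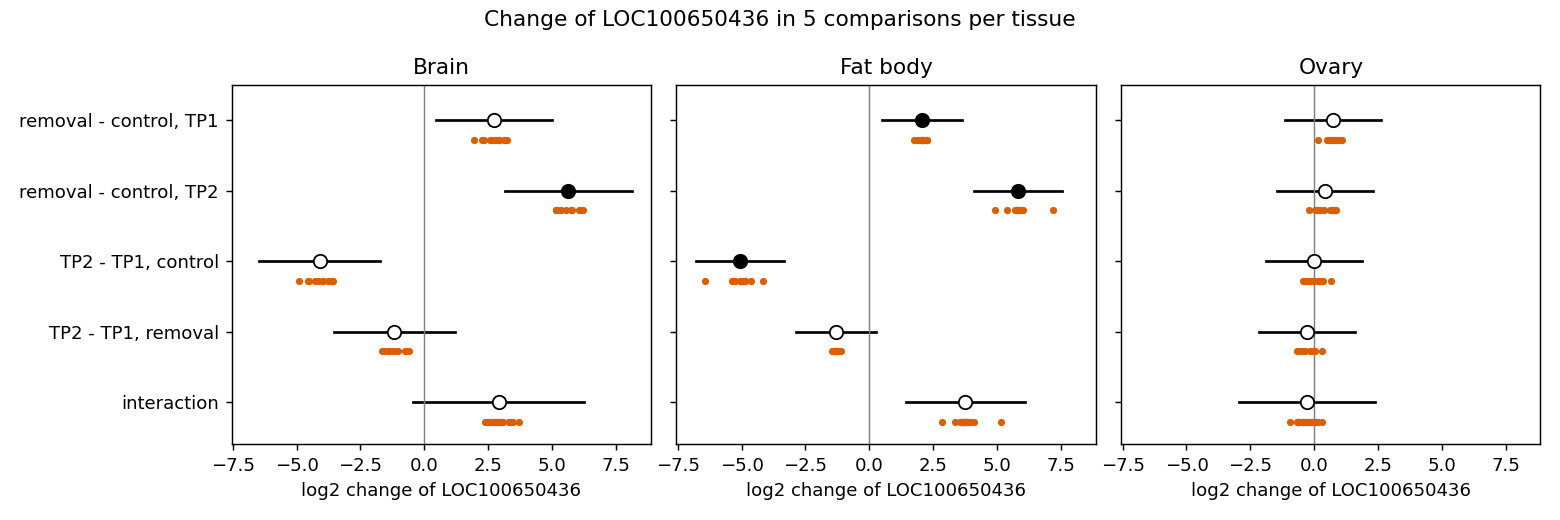
Log2 change of LOC100650436 in 5 comparisons for brain, fat body and ovary. Large circles are the limma estimates with 95% intervals, filled where the adjusted p was under 0.05, and small orange points are fits that each left out 1 library. The filled circles are the brain at TP2 (5.64) and the fat body at TP1 (2.06), at TP2 (5.82) and with time in controls (-5.06).

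The brain had the same order of group means as the fat body at a much lower level. At TP1 control brains had 195884, 51240.2, 17486, 1975, 121943 and 23629.8 normalized reads. Egg removal brains at TP1 had 1013122, 49669, 833938, 184972, 105296 and 102659. The groups overlapped widely, and only 2 egg removal libraries lay above every control. The log2 difference was 2.73 (SE 1.08, 95% interval 0.47 to 4.98), with an adjusted p of 0.191 by limma, where 2.37% of genes were called. The exact permutation test gave p = 0.0519 and 0.0891 adjusted over the 12 pairs. With estimated depth as a covariate the difference was 3.25 and was called (adjusted p = 0.0445 by limma).

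At TP2 LOC100650436 was 50 times higher in the brains of egg removal queens (95% interval 9.02 to 277). Control brains had 498, 736, 1454, 5839 and 6999.5 normalized reads, and egg removal brains had 62979.8, 19706, 366381, 71494 and 210215. No library of one group reached the other. The log2 difference was 5.64 (SE 1.18, adjusted p = 0.00681 by limma), in a comparison where 8.57% of genes were called and 4 of 10388 genes had a larger absolute change. The exact permutation test gave p = 0.00794, the smallest for 5 against 5 libraries, and 0.0286 adjusted over the 12 pairs. The call was made in each of 10 fits that left out 1 library, with log2 differences from 5.15 to 6.20. As a share of the library total, brains held 0.00846% ± 0.00842 (SD, n = 5) in control TP2 and 0.296% ± 0.261 (SD, n = 5) in egg removal TP2. At TP1 they held 0.160% ± 0.170 (SD, n = 6) and 0.605% ± 0.541 (SD, n = 6).

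With time the brain level in controls was 17.1 times lower (95% interval 3.31 to 87.9), a log2 change of -4.09 (SE 1.13) with an adjusted p of 0.0571 by limma, where 2.57% of genes were called. The exact permutation test gave p = 0.0173 and 0.0381 adjusted over the 12 pairs. Control TP1 replicate 4, at 1975, was the one TP1 brain within the TP2 range, and without it limma gave -4.89 and an adjusted p of 0.0215. In egg removal brains the change was -1.17 (SE 1.13, 95% interval -3.54 to 1.19), with an adjusted p of 0.994 by limma and an exact permutation p of 0.281 (0.422 adjusted over the 12 pairs). There 0.0481% of genes were called. The interaction was 2.92 (SE 1.599, 95% interval -0.43 to 6.26, adjusted p = 0.999 by limma). Limma called 0% of genes there, and 446 of the 10388 genes tested had an unadjusted p under 0.05.

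Brain libraries with high LOC100650436 were largely those high in another gene. LOC100644055, which has no product name in the tables used, had the highest value in 9 of 22 brain libraries, where it took 5.79% to 23.3% of the total, against at most 0.482% in the other 13. These were 2 control TP1, 3 egg removal TP1, 0 control TP2 and 4 egg removal TP2 libraries. LOC100650436 read 62979.8 to 1013122 in the 9 and 498 to 105296 in the other 13. With the log2 level of LOC100644055 as a covariate, the log2 difference of LOC100650436 at TP2 was 3.66 in place of 5.64 and was still called (adjusted p = 0.00714 by limma). With equal library totals that leave out LOC100644055 it was 5.47 (adjusted p = 0.0110 by limma). Without the 9 libraries it was 3.41 and not called (adjusted p = 0.415 by limma), in a fit with 1 egg removal TP2 library left.

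Fat body genes were measured beside LOC100650436 in the other tissues. With no named markers at hand, a reference set of 20 genes was taken for high shares in the fat body and low shares in brain and ovary, so its tissue pattern is a choice and not a result. Its summed share was 3.72% to 17.5% of the total in fat body, 0.0114% to 0.409% in brain and 0.0137% to 0.108% in ovary libraries. The sums of brain and ovary rested largely on different genes. LOC100652170 had a median share of 0.0361% in ovary and 0.000846% in brain libraries. LOC100644966 had 0.0165% in brain and 0.000198% in ovary libraries. Sums of like size in these 2 tissues are therefore not a like measure. At most 2 of the 20 genes were at 0 in any brain or ovary library. In the brain the set's median share was 0.0440% in control TP1, 0.137% in egg removal TP1, 0.0404% in control TP2 and 0.0532% in egg removal TP2.

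The ratio of LOC100650436 to the summed share of this set was taken in each library. In the brain the median ratio was 2.25 in control TP1, 3.77 in egg removal TP1, 0.0956 in control TP2 and 3.15 in egg removal TP2. In the fat body it was 2.01, 1.53, 0.0239 and 1.70 in the same groups. Control TP2 was lowest in both tissues. In the fat body at TP1 the set itself stood higher in egg removal (9.81% to 15.6%) than in control (5.12% to 6.75%), and the ratio was not higher in egg removal. The ratio there depends on the set's own change as well. A single member, LOC100652170, had a median of 2.72% in fat body libraries, against 6.58% for the set. Another member, LOC100648002, was called higher in egg removal at TP1 (log2 2.17, adjusted p = 0.00196 by limma), where 16.5% of all genes were called higher. In ovaries the median ratio was 0.0222 to 0.0356 in the 4 groups, to a sum that rests largely on other genes than in the brain.

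Set against the fat body of the same group, brain medians of LOC100650436 were 0.920% of the fat body median in control TP1, 1.42% in egg removal TP1, 2.70% in control TP2 and 1.17% in egg removal TP2. The reference set stood at 0.717%, 0.931%, 0.735% and 0.723%. In the ovary the reference set stood at 0.380% to 0.934% of its fat body level, and LOC100650436 at 0.00653% to 0.0123% in 3 groups and at 1.65% in control TP2, where the fat body level was itself low. The part of fat body RNA in the brain and ovary values was not tested.

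**Figure D3:**
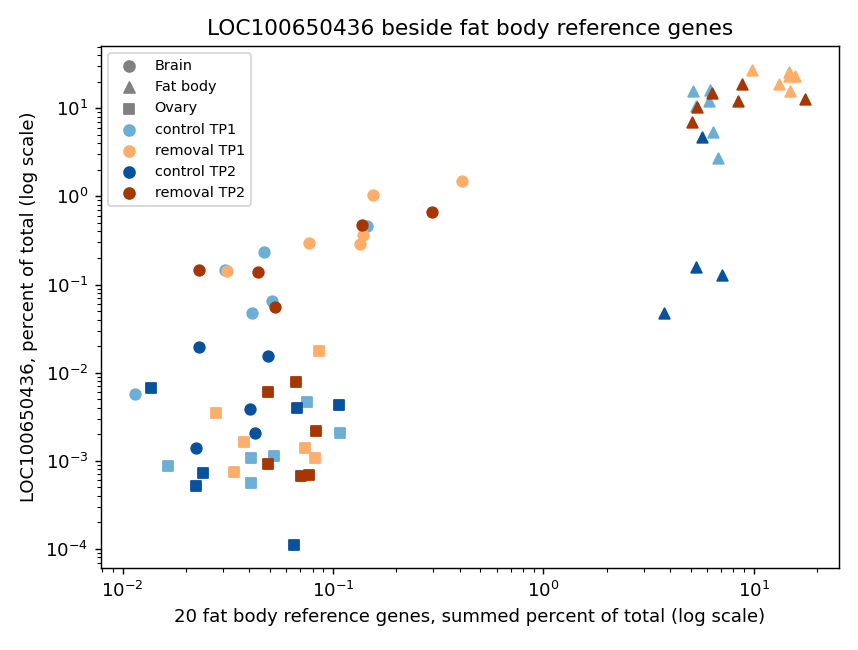
LOC100650436 against the summed share of 20 fat body reference genes, both in percent of the library total on log axes, for brain (circles), fat body (triangles) and ovary (squares), coloured by group. Reference shares run from 0.0114% to 0.409% in brain and from 0.0137% to 0.108% in ovary libraries, with sums that rest largely on different genes. In LOC100650436, 3 control TP2 fat body libraries lie far below the other fat body libraries.

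In the ovary, the organ that takes up the protein, the transcript was low in every group and no comparison passed the test. Control TP1 ovaries had 612, 292, 398, 559, 1054 and 2319.7 normalized reads. Egg removal TP1 ovaries had 393, 702, 1767, 816, 9159 and 568. Control TP2 ovaries had 69.7, 345, 247, 2391, 2273 and 3024, and those of egg removal TP2 had 1114, 321, 2872, 358, 469 and 3593. All 4 groups overlapped, and within control TP2 the highest library was 43.4 times the lowest.

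The log2 difference between egg removal and control in the ovary was 0.74 at TP1 (95% interval -1.14 to 2.61, adjusted p = 0.820 by limma) and 0.44 at TP2 (-1.44 to 2.32, adjusted p = 0.690 by limma). The change with time was 0.0041 in control (-1.87 to 1.88, adjusted p = 0.997 by limma) and -0.29 in egg removal (-2.17 to 1.59, adjusted p = 1 by limma). The interaction was -0.29 (-2.95 to 2.36, adjusted p = 0.869 by limma). Exact permutation p for the 4 pairs of ovary groups lay between 0.413 and 0.996. The intervals allow changes of several fold either way, so these tests do not show that the level was equal. Ovary genes in general did change, with 58.9% called between treatments at TP2, 61.8% with time in control and 34.9% in the interaction. Limma called 0% of ovary genes at TP1 and 0% with time in egg removal. There 1111 and 286 of the 10401 genes tested had an unadjusted p under 0.05.

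The groups accounted for different parts of the spread in each tissue. Of the variance of LOC100650436 on the log2 scale, 79.2% lay between groups in fat body, 67.8% in brain and 4.02% in ovary libraries, while the median gene had 31.5%, 19.8% and 43.2%. In the fat body 49 genes had a larger share between groups, in the brain 380 and in the ovary 10115. Pooled over the groups of a tissue, the gene varied more within groups than most genes did. Its pooled SD was 1.38 on the log2 scale in fat body, 1.92 in brain and 1.67 in ovary libraries, against medians over genes of 0.42, 0.21 and 0.44. Only 3.76%, 1.15% and 3.73% of genes varied more. The fat body groups were unlike in this. Their SDs were 0.41 and 0.60 in egg removal TP1 and TP2, against 1.06 and 2.96 in control TP1 and TP2.

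Ordered by mean log2 level, fat body groups ran from egg removal TP1 (23.3) to egg removal TP2 (22.04), control TP1 (21.3) and control TP2 (16.2). The brain followed the same order, at 17.7, 16.5, 14.9 and 10.9. In the ovary the order was egg removal TP1 (10.1), egg removal TP2 (9.85), control TP2 (9.41) and control TP1 (9.41). Neighbours in these orders had overlapping ranges in each tissue. Means with their SDs stayed apart for 2 neighbouring pairs, both in the fat body, egg removal TP1 with egg removal TP2 and control TP1 with control TP2.

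Libraries with the same group and number in different tissues were compared after taking out the group means. Brain and fat body had a Pearson r of -0.03 (Spearman rho 0.10, n = 20, permutation p = 0.908), brain and ovary 0.35 (rho 0.29, n = 22, permutation p = 0.123), and fat body and ovary 0.45 (rho 0.30, n = 22, permutation p = 0.108). Adjusted over the 3 relations the p-values were 0.908, 0.185 and 0.185. Without the 2 libraries farthest from the median, r was 0.06, 0.41 and 0.0073. The permutation p for rho was 0.676, 0.211 and 0.198, or 0.676, 0.317 and 0.317 adjusted.

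Of the genes known to act with vitellogenin, only Kr-h1 could be identified by symbol. Kr-h1 is a transcription factor that responds to juvenile hormone in insects. Its fat body level at TP1 was higher in egg removal, at 1432 to 2228 against 787 to 1193 normalized reads with no overlap. The log2 difference was 0.83 (adjusted p = 0.00245 by limma), in a comparison where 32.4% of all genes were called. Egg removal libraries there also had larger normalized totals (39.9 to 56.7 M against 23.7 to 32.9 M). Kr-h1 was not fitted with equal totals or with depth as a covariate, so whether its call would hold was not tested. Kr-h1 fell with time in egg removal fat bodies by 0.72 on the log2 scale (adjusted p = 0.0296 by limma). In the brain at TP2 it was higher in egg removal by 0.62 (adjusted p = 0.0403 by limma), with overlapping groups (758 to 1107 against 395 to 1000.3). It was not called in the other 12 comparisons. The call at TP1 in the fat body and that at TP2 in the brain went in the direction of LOC100650436. In the fat body at TP2, where LOC100650436 differed most on the log2 scale, Kr-h1 was not called (adjusted p = 0.113 by limma).

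Genes whose pattern was most like that of LOC100650436 were ranked in each tissue by Pearson's r of log2 values over its libraries. These r are descriptions, since the libraries share groups and normalization, and no product names were at hand. In the fat body (n = 22) the 5 most alike were LOC100649112 (r = 0.94), LOC100644723 (0.93), LOC100642555 (0.92), LOC100650592 (0.92) and LOC100646123 (0.92). These 5 were all called higher in egg removal at TP2, where 2.31% of all genes tested were called higher. At TP1 4 of them were, where 16.5% of all genes were called higher. They were chosen for this pattern, so nothing is read from these counts. LOC100649112 ranged from 364 to 1347 in control TP2 libraries and from 1191 to 2349 in egg removal TP2. Within groups r was lower, from 0.67 for LOC100650592 to 0.81 for LOC100642555. These r pool all groups, and LOC100650436 spread most in control TP2 (log2 SD 2.96, against 0.41 to 1.06 elsewhere). That group held replicate 5 far above its other libraries, and r without it was not taken.

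The 2 fat body genes most opposed to LOC100650436 were LOC105667088 (r = -0.94) and LOC100643262 (r = -0.93). LOC100643262 had its lowest libraries where LOC100650436 was highest, at 3.14 to 16.2 in egg removal TP1 and 32.6 to 142 in egg removal TP2. It stood at 53.1 to 358 in control TP1 and at 144 to 6828 in control TP2. Control TP2 replicate 5, the one late control with a high LOC100650436 value, was also the one with a low LOC100643262 value (144, against 2536 to 6828 in the other 3). Within groups the 2 genes had r = -0.76, again pooled over all groups and not taken without that library.

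**Figure D4:**
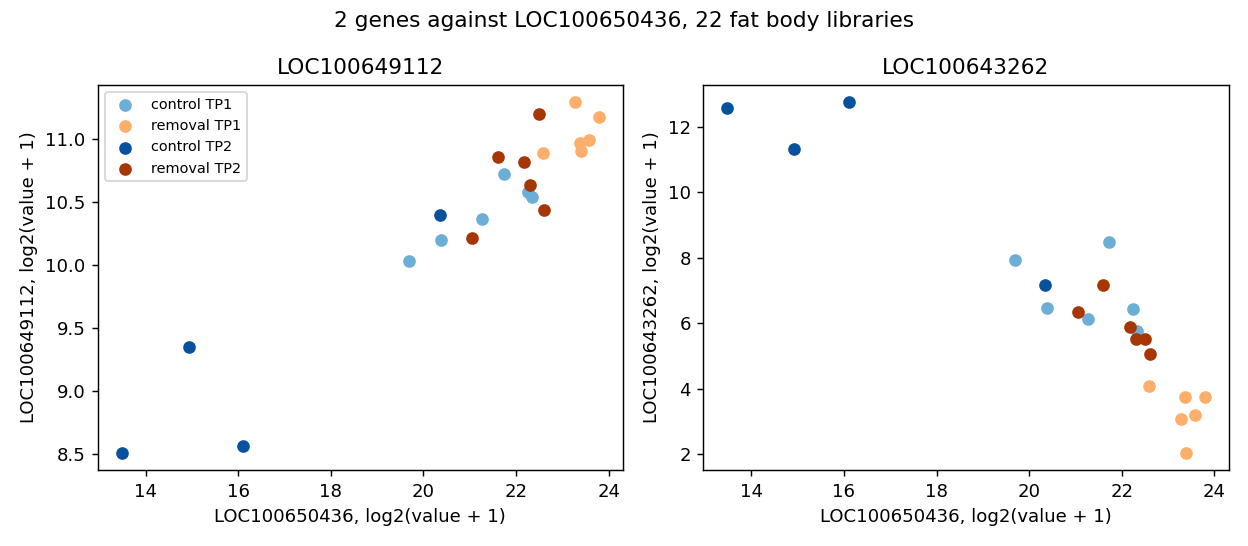
LOC100649112 and LOC100643262 against LOC100650436 in 22 fat body libraries, all as log2 of the normalized read count plus 1, coloured by group. LOC100649112 is higher where LOC100650436 is higher (r = 0.94) and LOC100643262 is lower (r = -0.93), and control TP2 replicate 5 lies among the TP1 controls in both plots.

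In the brain (n = 22) the 5 most alike were LOC100649144 (r = 0.90), LOC105667110 (0.89), LOC105666139 (0.88), LOC100648644 (0.88) and LOC100649907 (0.87). Of these, 4 were called higher in egg removal at TP2, where 3.68% of all genes tested were, and LOC100649907 was not (log2 2.50, adjusted p = 0.0912 by limma). These genes too were picked for following LOC100650436, which was itself called there, so nothing is read from the count. LOC105667110 had 25.4 to 119 normalized reads in control TP2 brains and 118 to 865 in egg removal TP2 brains, and within groups its r was 0.83. Its r with LOC100650436 was 0.84 over fat body and 0.16 over ovary libraries. LOC100648644 was alike only under the deposited scaling, with r = -0.08 after libraries were scaled to the same total of other genes. LOC100647386 (r = -0.89) and LOC100650817 (-0.88) ran the opposite way.

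In the ovary (n = 24) the likeness was weaker, and it was about as large within groups as over all libraries for the gene most alike. LOC100648002 was most alike, with r = 0.80 and 0.81 within groups, at 7.89 to 44.3 normalized reads. It is one of the 20 fat body reference genes, with a median share of 0.0481% in fat body libraries and 3.88e-05% in the ovary. Its r with LOC100650436 was 0.037 over brain and 0.785 over fat body libraries. The next were LOC100644234 (0.64), LOC100651307 (0.64), LOC100642326 (0.63) and LOC110119240 (0.63), the last with libraries at 0. LOC100651625 (-0.77) and LOC100646678 (-0.75) ran opposite. None of these 7 genes was called in the 5 ovary comparisons, where 0% (TP1), 58.9% (TP2), 61.8% (time in control), 0% (time in egg removal) and 34.9% (interaction) of all genes were. They were picked for following a gene with no called change, so nothing is read from this either. LOC100651307 had r = 0.83 with LOC100650436 in the brain as well.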

How the data were processed

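Messenger RNA libraries were stranded, came from 1 tissue of 1 queen each and were sequenced on 2 lanes, per the labels' protocols. The submitters' processing notes name kallisto 0.46.1, R 4.0.1 and DESeq2 1.28.1. Genome build, annotation and strand use in counting: not given in the sources used here. Each tissue has 1 deposited table of signal values, which are normalized read counts with decimals, and the values show that the authors scaled each table by medians of ratios. Whole reads were not recoverable (57.5% to 94.5% of low values lay near whole multiples of 1 read), so no count model was run and no counting intervals are given. Depth per library was estimated as its total over the value of a single read, as read from the lowest cluster of values. Of 70 labelled samples, 68 had a column and were used. The 2 without one were fat body control TP2.

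The member and the gene lists were chosen with earlier results of these data known. Values were taken as log2(value + 1) for genes with a mean of at least 1 in at least 1 group, and a 4-group model per tissue was fitted with limma 3.58.1 (trend and robust) in R 4.3.3 with statmod 1.5.0. P-values were adjusted by Benjamini-Hochberg over all genes in each of 15 comparisons, with a threshold of 0.05, and fold changes are on the log2(value + 1) scale. The fit was tested on simulated data. Exact two-sided permutation tests on the gene used Python with scipy 1.17.1, and correlations between tissues used 100000 permutations. Named genes were LOC100650436, pathway genes identifiable by symbol (Kr-h1 alone), the 5 genes with the highest and the 2 with the lowest Pearson correlation with it in each tissue, and the gene with the highest value in a library. A family list by sequence and tissue marker lists were planned and could not be built. Replicate numbers were not taken to pair the samples, so the fit had no block. Same-numbered pairs that correlated above 0.1 were 9 of 30 for brain, 10 of 30 for fat body and 15 of 36 for ovary. The median r of all same-numbered pairs was -0.04, 0.05 and 0.03, against 0.003, -0.002 and -0.01 for other pairs. The highest same-numbered r was 0.57, 0.32 and 0.66. Other pairs above 0.1 were not counted, so pairing is not excluded. P-values measure the spread between queens.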

Additional observations from a re-analysis of the deposited data

Results flagged for a closer look

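On the scale of untransformed values, a single library stood apart from its group in 2 of the 12 groups, by its gap to the next library relative to the range of the group. On the log2 scale used in the fits neither library passed, with gaps of 0.618 of the range for the first described here and 0.523 for the second. Chance alone marks about 1 group in 20 where values are normally distributed. That rate need not hold for these untransformed values, so 2 of 12 is not read as an excess. In fat body control TP2, replicate 5 had 1334912 normalized reads of LOC100650436, against 70359.6 in the next library, a gap of 0.955 of the range, above the critical value of Dixon's test for 4 libraries at the 95% level. In ovary egg removal TP1, replicate 5 had 9159 against 1767 in the next library, a gap of 0.843 of the range, above that for 6 libraries. Without the ovary library the log2 difference from control at TP1 was 0.13 in place of 0.74.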

How the results depend on the processing

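Calls for LOC100650436 in the brain and fat body at TP2 and with time in fat body controls held under most settings. Scaling libraries to the same total weakened the fat body difference at TP1 to 1.31, to 1.51 with the gene left out of the total (adjusted p 0.0982 by limma), and depth as a covariate to 0.77. Depth and LOC100644055 as covariates and the fits without the 9 brain libraries were added after seeing the data. With depth, brain TP1 was called at 3.25, and time in brain controls at -5.76 (adjusted p 0.00862 by limma). The latter was also called with LOC100644055 as a covariate (-3.28, adjusted p 0.0111 by limma). Brain TP2 was 3.66 with that covariate and still called (adjusted p 0.00714 by limma), 5.47 with totals leaving out LOC100644055 (adjusted p 0.0110 by limma), and 3.41 without the 9 libraries. The fat body interaction was called with weights (4.40), the same total (4.24, or 4.22 without the gene) and depth (4.78). Fits of 2 groups alone lost the fat body calls at TP2 (5.82) and with time in controls (-5.06). In the ovary, time in control turned to -0.74 with weights and to -0.029 with either scaling, and the interaction to 0.11 with weights. The cause of these shifts was not tested.

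Leaving out 1 library at a time gave, in the brain, 1.93 to 3.25 at TP1, 5.15 to 6.20 at TP2, -4.89 to -3.57 with time in control, -1.67 to -0.62 in egg removal and 2.39 to 3.72 for the interaction. The fat body gave 1.74 to 2.27, 4.91 to 7.20, -6.44 to -4.15, -1.45 to -1.10 and 2.85 to 5.14 in the same order. The ovary gave 0.13 to 1.09, -0.21 to 0.87, -0.43 to 0.66, -0.68 to 0.31 and -0.95 to 0.31, so 4 of its 5 comparisons changed sign. The likeness of LOC100648644 in the brain turned to -0.0768 with libraries scaled to the other genes' total.

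With the replicate number as a block, though the numbers were not taken to pair the samples, the brain gave 2.73, 5.52, -3.95, -1.15 and 2.80. The fat body gave 2.06, 5.86, -5.10, -1.30 and 3.80, and the ovary 0.74, 0.44, 0.0041, -0.29 and -0.29. No call changed (adjusted p 0.0488 by limma for the fat body at TP1). A pseudocount of 10 and no filter on low values changed no call. Reads on the gene were fewest in the ovary, at an estimated 22 in control TP2 replicate 1 and 303 in the next lowest library. Ovary libraries were not the shallowest, at 19.6 to 68 M reads against 12.1 to 60.2 M in the fat body.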
